A study of Mus musculus with 6 samples.

Results

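Transcripts of the tumor necrosis factor (TNF) superfamily were examined in mouse hearts subjected to ischemia-reperfusion (I/R), where the blood supply of the heart muscle is interrupted and then returned. Members were taken by name: rows of the deposited gene table whose symbol was Tnfsf or Tnfrsf followed by a number and any letters, together with Tnf, Lta, Ltb, Ltbr, Fas, Fasl, Cd27, Cd40, Cd40lg, Cd70, Ngfr and Eda2r. This gave 44 of 55359 rows, of which 17 were ligands, 26 were receptors and 1, Tnfsf13os, was a transcript named for the strand opposite the ligand gene Tnfsf13. The members lay on 14 chromosomes, and 23 of them stood in 9 clusters in which neighbours were no more than 200 kb apart. In the coordinates of the table, whose genome build is not given in the sources used here, Ltb, Tnf and Lta spanned 10.9 kb of chromosome 17 (35413415 to 35424327), and Cd27, Ltbr and Tnfrsf1a spanned 129 kb of chromosome 6 (125209585 to 125338837).

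The hearts came from C57BL/6 mice in 2 groups of 3 libraries. The libraries shYthdf2 1 to 3 were labelled as carrying a short hairpin RNA (shRNA) against YTHDF2, a protein that reads N6-methyladenosine in RNA. The libraries shNC 1 to 3 were labelled as carrying a control shRNA, so the control hearts had received the vector as well. Both shRNAs were delivered through the tail vein in the adeno-associated virus AAV9, with a GFP construct under the cTNT promoter, whose activity is known from cardiomyocytes. In both groups the operation came 4 weeks after the vector, ischemia lasted 45 min and reperfusion 24 h, so that no library came from an uninjured heart. The labels give no age. Nor do they state that each replicate was an animal of its own, so a p-value here speaks of the spread among these samples and nothing wider, and that spread may be technical. Total counts were 71121131 to 77561552 in the shYthdf2 libraries and 67023813 to 76026601 in the shNC libraries. The summed level of 8 cardiomyocyte markers, in CPM, counts scaled per 1e+06 counts of the library, was 20649 to 27711 in shYthdf2 and 18552 to 46447 in shNC. The libraries were thus rich in heart muscle RNA as labelled.

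The target of the hairpin was no lower where the label named YTHDF2 shRNA. Ythdf2 (ENSMUSG00000040025, chromosome 4, 131912223 to 131939614, minus strand) had 25.1, 25.6 and 32.7 CPM in the shYthdf2 libraries, against 20.7, 24.3 and 27.0 CPM in the shNC libraries. Its log2 fold change was 0.21 ± 0.20 (SE), and the adjusted p of the edgeR quasi-likelihood test was 0.976. Each direction given here therefore compares libraries by their label alone.

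Ligands of the TNF superfamily are mostly trimeric membrane proteins that can be shed from the cell, and they act by clustering receptors on the cells they meet. Receptors with a death domain can assemble complexes that kill the cell, while the others recruit TRAF adaptors and switch on NF-kappaB signalling. In the injured heart TNF itself is known as an early inflammatory signal from infiltrating and resident cells, and the TWEAK receptor as a transcript that injured tissue induces.

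No member passed the test. Of the 44 members, 37 had enough counts to be tested (12 ligands, 24 receptors and Tnfsf13os), and 0 reached an adjusted p under 0.05 in edgeR, where 2 of 20489 genes passed over the whole table (0.00976%). Adjusted p-values of the members in edgeR ran from 0.976 to 0.997. At an unadjusted p under 0.05 there were 2 members, Tnfrsf9 and Tnfrsf14, and DESeq2 called 1 member, Tnfrsf9. Over all genes tested 3.65% had an unadjusted p under 0.05 in edgeR, and 0.193% passed in DESeq2. Positive estimates were more frequent than negative ones: 26 of the 37 members had a positive log2 fold change, against 48.6% of all genes tested. Their median log2 fold change was 0.31, against -0.01 for all genes. It was 0.26 over the 12 ligands and 0.35 over the 24 receptors. These members were not tested as a set, and the median SE of a member, 0.48, was larger than that median fold change.

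**Figure D1:**
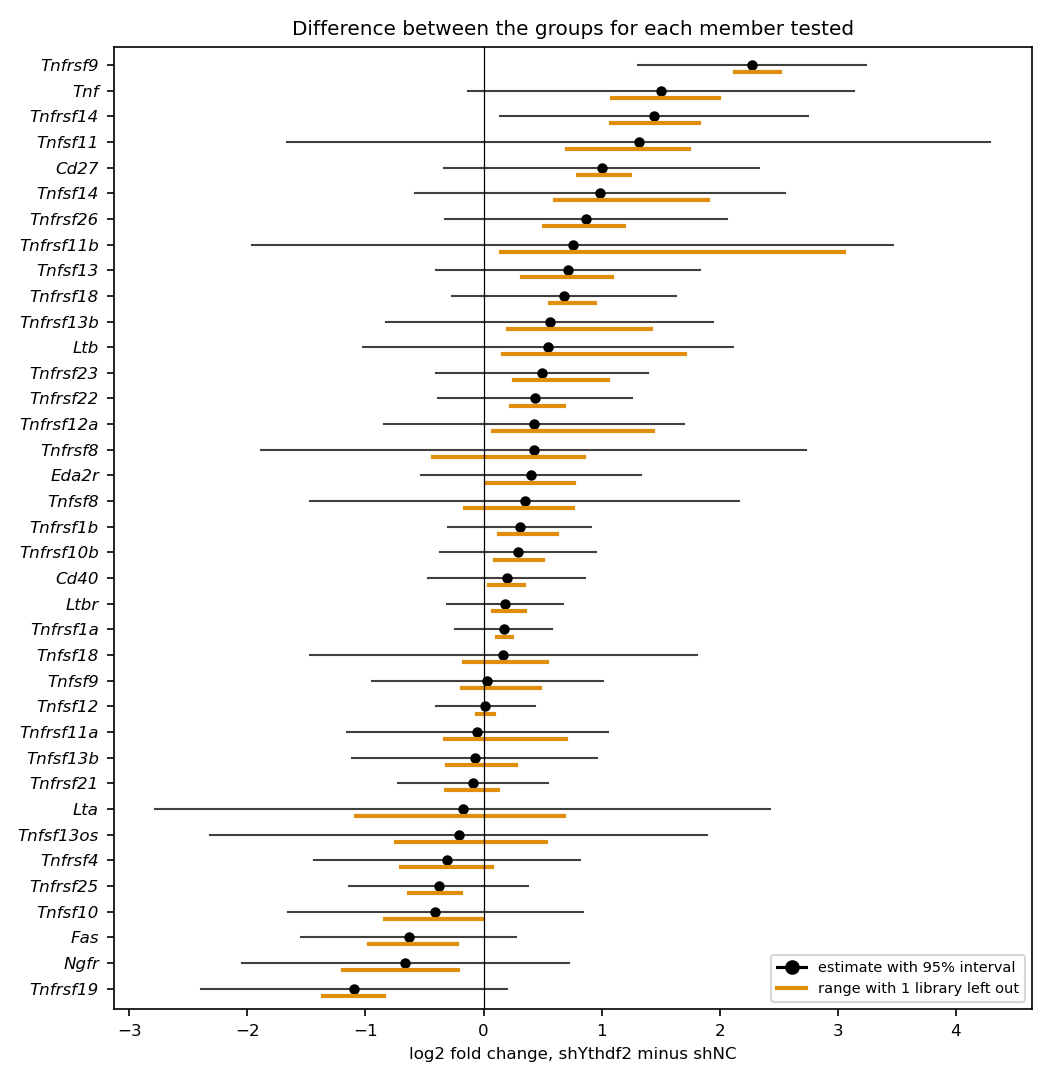
Log2 fold change, shYthdf2 minus shNC, of the 37 members tested (points) with the 95% interval from edgeR (black lines) and the range of estimates when each of the 6 libraries was left out in turn (orange lines). The intervals of Tnfrsf9 and Tnfrsf14 lie above 0, and all other intervals include 0.

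A few receptors carried most of the family's transcript. On the scale of FPKM, fragment counts scaled to gene length and depth, which corrects for gene length and allows levels to be set beside each other, Tnfrsf1a had the highest mean over the 6 libraries at 39.6 FPKM. Tnfrsf12a followed at 37.1 FPKM, then Ltbr at 23.0 and Fas at 14.9 FPKM. The ranges of Tnfrsf1a and Tnfrsf12a overlapped, so that their order is not fixed by these libraries. Those 4 receptors held 79.7% to 82.2% of the summed receptor FPKM in the shYthdf2 libraries and 80.7% to 83.1% in the shNC libraries, a share that hardly differed between libraries. The ligands were far lower. Tnfsf12 led them at 10.8 FPKM, followed by Tnfsf10 at 2.62, Tnf at 2.41 and Ltb at 2.26 FPKM, and these last 3 overlapped in range. Of the 44 members, 18 had a mean over 1 FPKM, 5 a mean over 10 FPKM and 10 a mean under 0.1 FPKM.

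**Figure D2:**
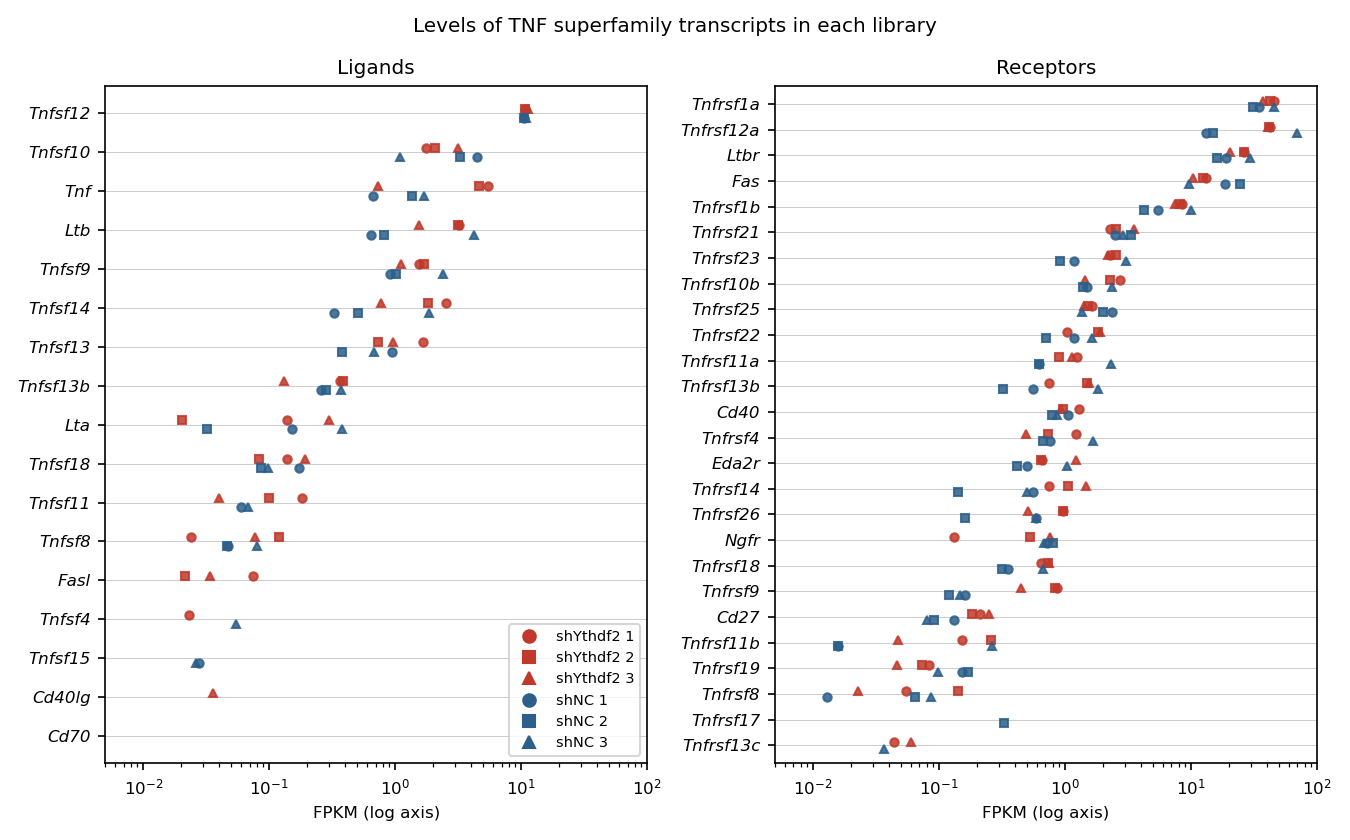
FPKM (log axis) of each ligand (left) and receptor (right) in the 3 shYthdf2 libraries (red) and the 3 shNC libraries (blue), with members ordered by their mean over the 6 libraries. Libraries with 0 counts are not drawn, which leaves Cd70 without a point, and Tnfsf12 shows the tightest set of points while the 2 lower shNC points of Tnfrsf12a stand apart from shNC 3.

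Tnf, the founding cytokine of the family, was high in shYthdf2 1 and 2, while shYthdf2 3 resembled the controls. The gene (ENSMUSG00000024401, chromosome 17, 35418357 to 35420983, minus strand) had 9.70, 8.27 and 1.34 CPM in shYthdf2 1, 2 and 3, against 1.26, 2.80 and 2.74 CPM in shNC 1, 2 and 3. The shYthdf2 group thus held both the highest values and a value below those of shNC 2 and 3, and the groups overlapped. The means were 6.44 ± 4.47 CPM in shYthdf2 and 2.27 ± 0.88 CPM in shNC (SD, n = 3 each). The log2 fold change was 1.51 ± 0.70 (SE, 95% interval -0.13 to 3.14, edgeR adjusted p = 0.976), and the exact two-sided permutation test of the 6 values gave p = 0.3. With 3 against 3 libraries that exact test cannot go below p = 0.1.

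Summed transcripts of neutrophil and of platelet markers were highest in the libraries in which Tnf was highest. The summed level of 10 neutrophil markers was 752, 814 and 178 CPM in shYthdf2 1, 2 and 3, against 371, 529 and 374 CPM in shNC 1, 2 and 3, with Camp and Ngp at 0 in some library. The summed level of 8 platelet markers was 170, 175 and 51.4 CPM in shYthdf2, against 41.6, 35.0 and 51.1 CPM in shNC, with Tubb1 at 0 in some library. Both sums were highest in shYthdf2 1 and 2, and that of neutrophils was lowest in shYthdf2 3. Single neutrophil markers differed in order. S100a8, S100a9 and Cxcr2 were highest in shYthdf2 1 and 2, but Csf3r was highest in shNC 3 (129 CPM). Ly6g and Ngp were highest in shNC 2 and Camp in shNC 1. Lcn2 was a large part of the neutrophil sum, with 294 and 357 CPM in shYthdf2 1 and 2 and 336 CPM in shNC 2. For 10 monocyte and macrophage markers, all detected in every library, the sum was 667, 689 and 711 CPM in shYthdf2, against 430, 421 and 1062 CPM in shNC, so that shNC 3 was highest. Lyz2 was a large part of that sum, with 529 CPM in shNC 3. Cd14 was highest in shYthdf2 2 (76.0 CPM) and Mrc1 in shYthdf2 3 (59.5 CPM), and all other markers of this list in shNC 3. Of the tested markers, 0 of 9 for neutrophils, 0 of 8 for platelets and 0 of 10 for macrophages passed in edgeR. Of them 0, 7 and 0 had an unadjusted p under 0.05, against 3.65% of all genes tested. The part of these cells in the level of Tnf was not tested. In RNA of whole tissue, more cells of a type and more RNA per cell cannot be told apart.

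**Figure D3:**
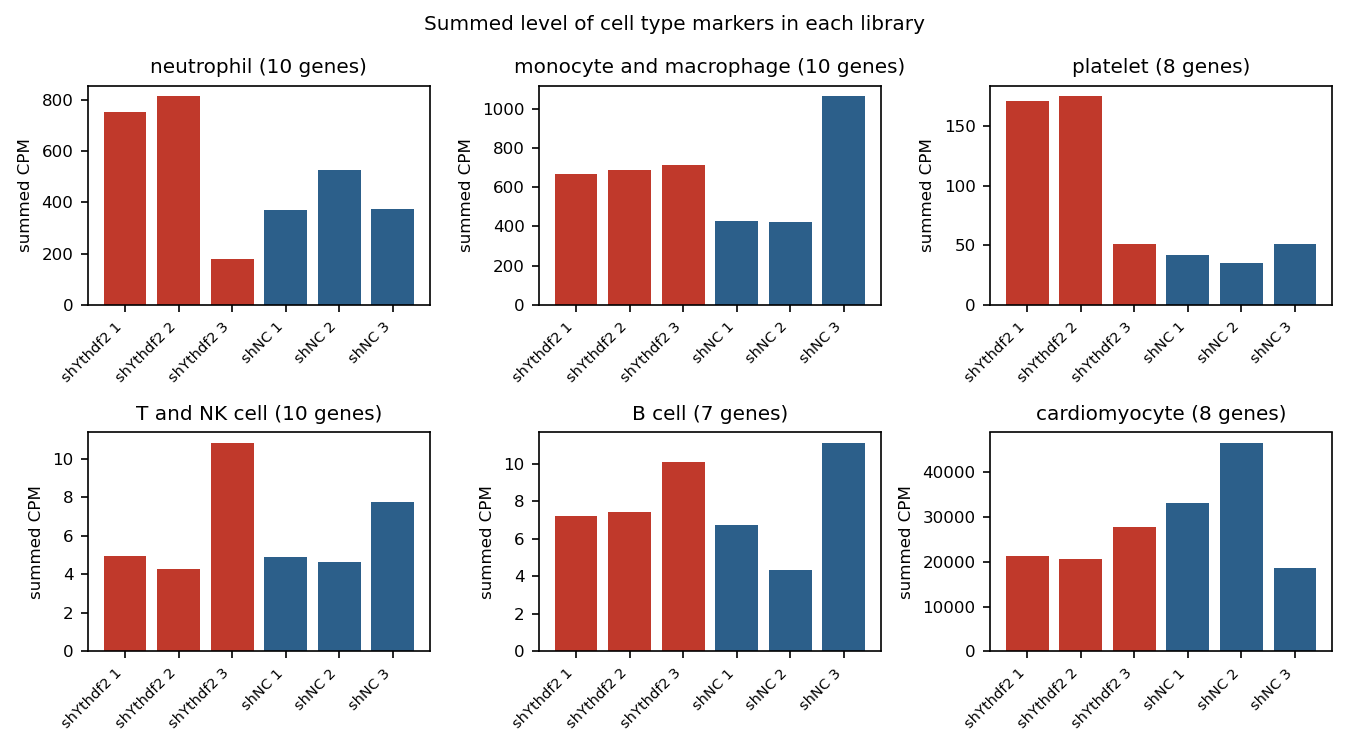
Summed CPM of 6 lists of cell type markers in each of the 3 shYthdf2 libraries (red bars) and the 3 shNC libraries (blue bars), on axes that start at 0. Neutrophil and platelet sums are highest in shYthdf2 1 and 2, macrophage and B cell sums in shNC 3, the T and NK cell sum in shYthdf2 3 and the cardiomyocyte sum in shNC 2.

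Both TNF receptors varied less between libraries than their ligand, with coefficients of variation of 10.1% for Tnfrsf1a and 23.0% for Tnfrsf1b, against 84.5% for Tnf. Tnfrsf1a, the receptor with a death domain that most cells carry (ENSMUSG00000030341, chromosome 6, 125326325 to 125338837, plus strand), had 129.8, 122 and 109 CPM in shYthdf2, against 103, 100.4 and 117 CPM in shNC. Its groups overlapped only through shYthdf2 3 and shNC 3. Between the group estimates the log2 fold change was 0.17 ± 0.18 (SE, 95% interval -0.24 to 0.58). Tnfrsf1b, the second receptor, which lacks a death domain and is strong on immune and endothelial cells (ENSMUSG00000028599, chromosome 4), had 35.8, 34.6 and 31.8 CPM in shYthdf2, against 24.3, 20.2 and 38.2 CPM in shNC. The shYthdf2 values lay between those of shNC 1 and 2 below and shNC 3 above. In log2 terms the difference was 0.31 ± 0.26 (SE, 95% interval -0.30 to 0.91). For both receptors the interval stays within a 2-fold difference in either direction. The ratio of the FPKM of Tnfrsf1a to that of Tnfrsf1b was 5.02 to 5.35 in shYthdf2 and 4.50 to 7.34 in shNC.

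The lymphotoxin genes next to Tnf did not share its pattern. Ltb, the membrane-anchoring subunit of lymphotoxin (ENSMUSG00000024399, chromosome 17), had 5.32, 5.22 and 2.64 CPM in shYthdf2, against 1.13, 1.56 and 6.32 CPM in shNC. The value of shNC 3 was the highest of the 6 and those of shNC 1 and 2 the lowest. The log2 fold change of Ltb was 0.55 ± 0.67 (SE), and 1.71 without shNC 3. Lta, the secreted subunit, was held by 3 to 36 counts in shYthdf2 and 4 to 40 counts in shNC. Ltbr, the receptor through which membrane lymphotoxin and LIGHT act (ENSMUSG00000030339, chromosome 6), had 68.2, 68.4 and 53.9 CPM in shYthdf2, against 51.8, 47.8 and 68.6 CPM in shNC. Its groups overlapped across most of their range (log2 fold change 0.18 ± 0.21 SE, 95% interval -0.31 to 0.67).

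The TWEAK pair joined the steadiest ligand to a receptor that split the control libraries. Tnfsf12, which encodes TWEAK (ENSMUSG00000097328, chromosome 11, 69577076 to 69586675, minus strand), had 17.8, 17.7 and 19.4 CPM in shYthdf2, against 18.3, 19.8 and 16.3 CPM in shNC. Its coefficient of variation over the 6 libraries was 6.96%, the lowest of the 37 members tested, whose median was 46.5%, against a median of 33.6% for all genes tested. Its estimated log2 fold change was 0.01 ± 0.18 (SE, 95% interval -0.40 to 0.43), which turned to -0.021 with upper-quartile scaling. Reads of this locus can be split over several rows, since Tnfsf12 and Tnfsf13 overlap the readthrough row Tnfsfm13 on the same strand and Tnfsf13os on the other. Whether counting used strand is not given in the sources used here. Summed over Tnfsf12, Tnfsf13 and Tnfsfm13 the level was 32.6, 29.6 and 32.5 CPM in shYthdf2, against 38.2, 38.1 and 26.7 CPM in shNC, with a coefficient of variation of 13.8%.

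Tnfrsf12a, the TWEAK receptor Fn14 (ENSMUSG00000023905, chromosome 17, 23894419 to 23896442, minus strand), had nearly the same level in all 3 shYthdf2 libraries. It had 89.7, 88.8 and 88.3 CPM in shYthdf2, against 29.4, 36.4 and 132 CPM in shNC. The lower 2 control values lay at less than the shYthdf2 level and the value of shNC 3 above it, so the groups overlapped. The means were 88.9 ± 0.73 CPM in shYthdf2 and 66.1 ± 57.6 CPM in shNC (SD, n = 3 each). In log2 terms this was a fold change of 0.43 ± 0.54 (SE, 95% interval -0.84 to 1.70, edgeR adjusted p = 0.976). The FPKM of this receptor was 3.57 to 3.95 times that of its ligand in shYthdf2, against 1.26, 1.44 and 6.39 times in shNC 1, 2 and 3. Without shNC 3 the log2 fold change was 1.44 and Tnfrsf12a passed in edgeR (adjusted p = 0.0331), in a fit where 211 of 21245 genes (0.993%) passed. The library shNC 3 thus decides the call.

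**Figure D4:**
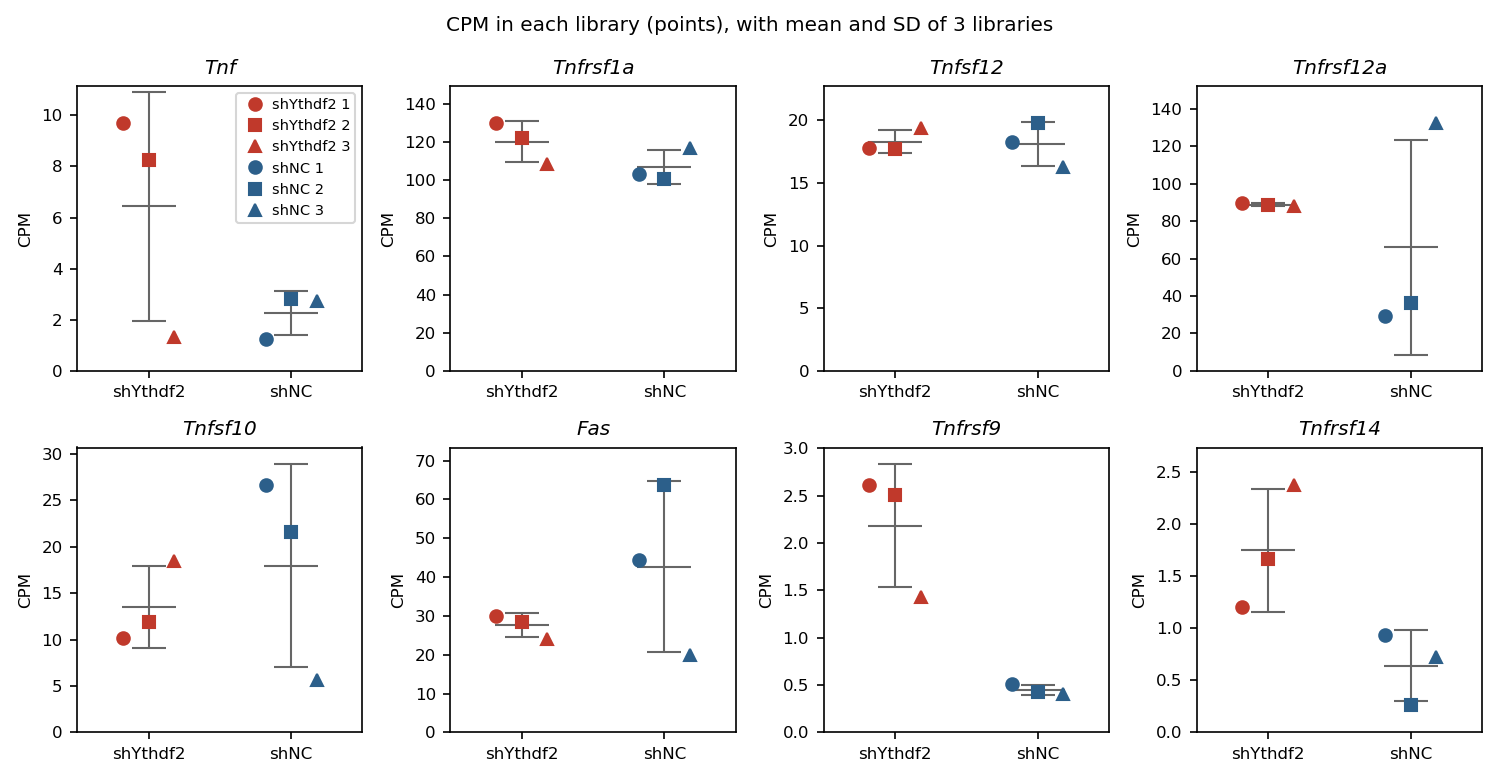
CPM of 8 members in each library, with shYthdf2 (red) left of shNC (blue) in each panel and the mean with its SD over 3 libraries in grey, on axes that start at 0. Tnfrsf12a, Tnfsf10 and Fas show shNC 3 apart from shNC 1 and 2, Tnf shows shYthdf2 3 apart from shYthdf2 1 and 2, and only Tnfrsf9 and Tnfrsf14 of the 8 have groups that do not overlap.

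Among the death ligands and their receptors, 2 transcripts were high in shNC 1 and 2. Tnfsf10, the ligand TRAIL (ENSMUSG00000039304, chromosome 3), had 10.2, 11.9 and 18.5 CPM in shYthdf2, against 26.7, 21.6 and 5.68 CPM in shNC. The highest and the lowest of the 6 values were both controls. Fas, the death receptor (ENSMUSG00000024778, chromosome 19, 34268066 to 34305172, plus strand), had 30.0, 28.6 and 24.1 CPM in shYthdf2, against 44.4, 63.8 and 19.9 CPM in shNC. Again shNC 3 was lowest and shNC 1 and 2 were highest, the opposite of Tnfrsf12a. The log2 fold changes were -0.41 ± 0.53 (SE) for Tnfsf10 and -0.63 ± 0.39 (SE) for Fas, and without shNC 3 they were -0.83 and -0.97. Beside them, the summed cardiomyocyte markers were 21186, 20649 and 27711 CPM in shYthdf2, against 33072, 46447 and 18552 CPM in shNC. Those sums were likewise highest in shNC 1 and 2 and lowest in shNC 3, and their part in the 2 transcripts was not tested. All markers of the list had that order except Ttn and Actc1. Ttn had 1330, 1321 and 1983 CPM in shYthdf2, against 811, 798 and 568 CPM in shNC. Actc1 was highest in shYthdf2 3 (6944 CPM) and lowest in shNC 1 (1783 CPM).

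Fasl, the ligand of Fas, had counts too low to pass the filter of the test. It had 12, 4 and 6 counts in shYthdf2 and 0 counts in each shNC library (ENSMUSG00000000817, chromosome 1). At 0 counts up to 3 counts are allowed, or 0.0395 to 0.0443 CPM in the shNC libraries. That limit covers counting error only, since reads without molecular identifiers are not independent molecules. Low counts of these libraries also heaped on multiples of 4: shYthdf2 1 had 1635 genes at 4 counts, against 603 at 3 and 361 at 5, and each of the other 5 libraries likewise had more genes at 4 than at 3 or 5. What a count of 4 stands for was not tested. Fitted without a filter on low counts, Fasl had an unadjusted p of 0.0326 and an adjusted p of 0.718 in edgeR, where 2 of 35513 genes (0.00563%) passed. No fold is given for this gene.

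Tnfrsf10b, the receptor through which TRAIL signals death in the mouse (ENSMUSG00000022074, chromosome 14), had 16.3, 13.7 and 8.89 CPM in shYthdf2, against 9.41, 9.59 and 12.8 CPM in shNC. The lowest library was shYthdf2 3, and the estimate was a log2 fold change of 0.29 ± 0.28 (SE). A receptor cluster on chromosome 7 held Tnfrsf22, Tnfrsf23 and Tnfrsf26 within 78.2 kb, and all 3 had positive log2 fold changes from 0.44 to 0.87. These 3 genes are similar copies, so the counting could move reads between them. Tnfrsf26, a member of that cluster, had 3.41, 3.41 and 1.86 CPM in shYthdf2, against 2.20, 0.66 and 1.87 CPM in shNC, and its groups overlapped through shYthdf2 3. Tnfrsf21, the death receptor DR6 known from neurons (ENSMUSG00000023915, chromosome 17), had 10.3, 11.5 and 16.5 CPM in shYthdf2, against 11.8, 17.2 and 11.8 CPM in shNC. An estimated log2 fold change of -0.09 ± 0.27 (SE) became 0.046 without shYthdf2 1 and 0.12 without shNC 2. Ngfr, the neurotrophin receptor p75 (ENSMUSG00000000120, chromosome 11), had 0.51, 2.02 and 2.96 CPM in shYthdf2, against 2.86, 3.47 and 2.36 CPM in shNC. Its low value was that of shYthdf2 1 alone, and the log2 fold change was -0.66 ± 0.59 (SE), or -0.21 without that library.

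Costimulatory receptors, which sustain activated lymphocytes, were the group with the most separated libraries. Of the 37 members tested, 4 were higher in all 3 shYthdf2 libraries than in all 3 shNC libraries, namely the costimulatory receptors Tnfrsf9, Tnfrsf14, Cd27 and Tnfrsf18. Of the 7 members not tested, the death ligand Fasl was higher in the same way, at the counts given above. Over all genes tested 4.95% were higher in this way, a share that covers no untested row such as Fasl. In the other direction 1 member, Tnfrsf19, was lower without overlap, against 4.55% of all genes. The 5 members make 5 of 37, beside 9.51% of all genes in either direction. Tnfrsf18 was named here after its values were seen. Its row, with 42 to 98 counts, overlaps Gm16008 on the opposite strand, which had 52 to 100 counts. Without strand-aware counting the reads of these 2 rows cannot be told apart. Of the 7 costimulatory receptors tested, 6 had a positive log2 fold change, with a median of 0.68, and 0 passed in edgeR. An unadjusted p under 0.05 was found for 2 of the 7, against 3.65% of all genes tested.

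Tnfrsf9, the costimulatory receptor CD137 of activated T cells, also made by other activated cells, had the largest log2 fold change of the 37 members tested. The gene (ENSMUSG00000028965, chromosome 4, 150999019 to 151030559, plus strand) had 189, 194 and 109 counts in shYthdf2, against 38, 29 and 31 counts in shNC. In CPM this was 2.62, 2.51 and 1.43 in shYthdf2, against 0.51, 0.43 and 0.41 in shNC. All 3 shYthdf2 libraries were above all 3 shNC libraries, with shYthdf2 3 the lowest of its group. The means were 2.19 ± 0.65 CPM in shYthdf2 and 0.45 ± 0.06 CPM in shNC (SD, n = 3 each). The log2 fold change was 2.28 ± 0.41 (SE, 95% interval 1.31 to 3.24), a 4.85-fold difference in the edgeR fit. The unadjusted p was 0.000754 and the adjusted p 0.976 in edgeR, while DESeq2 gave an adjusted p of 0.00496. The exact two-sided permutation test returned p = 0.1, its lower limit.

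The difference of Tnfrsf9 did not hang on a single library, while the call depended on the tool. With each library left out in turn the log2 fold change stayed between 2.13 and 2.51. On the log2(FPKM + pseudocount) scale of limma, which compresses low genes, it went down to 0.58. The row overlaps Camta1 on the opposite strand, and without strand-aware counting their reads cannot be told apart. Camta1 had 56.9, 61.1 and 81.2 CPM in shYthdf2, against 70.2, 94.4 and 57.4 CPM in shNC. The part of Camta1 reads in the counts of Tnfrsf9 was not tested. The ligand Tnfsf9 (ENSMUSG00000035678, chromosome 17) showed no such difference. It had 2.17, 2.42 and 1.61 CPM in shYthdf2, against 1.35, 1.62 and 3.08 CPM in shNC. The log2 fold change of the ligand was 0.03 ± 0.42 (SE), with a sign that changed under several settings.

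Tnfrsf14, the receptor HVEM for the ligand LIGHT (ENSMUSG00000042333, chromosome 4, 155006390 to 155013009, minus strand), had 1.20, 1.67 and 2.38 CPM in shYthdf2, against 0.93, 0.27 and 0.72 CPM in shNC. The groups did not overlap, and the gap between shYthdf2 1 and shNC 1 was narrow. Tnfrsf14 had a log2 fold change of 1.45 ± 0.56 (SE, 95% interval 0.14 to 2.75). The unadjusted p was 0.0340 and the adjusted p 0.976 in edgeR. Cd27, the receptor of CD70 on T and B cells (ENSMUSG00000030336, chromosome 6), had 40, 37 and 50 counts in shYthdf2, against 27, 19 and 15 counts in shNC, and overlaps the more abundant Vamp1 on the opposite strand. The log2 fold change of Cd27 was 1.00 ± 0.57 (SE). Its ligand gene Cd70 had 0 counts in all 6 libraries.

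The summed T and NK cell markers were highest in shYthdf2 3, while single markers differed in order. Their summed level over 10 genes was 4.96, 4.30 and 10.8 CPM in shYthdf2, against 4.89, 4.62 and 7.74 CPM in shNC. Cd3d, Cd3g and Klrb1c were at 0 in some library. Cd3d, Cd4, Cd8a, Trac, Lck and Nkg7 were highest in shYthdf2 3. Cd3e and Cd3g were highest in shNC 3, Klrb1c in shNC 2 and Cd2 in shYthdf2 1. Library shYthdf2 3 had the least Tnfrsf9 of its group. It also had the most Tnfrsf14, Cd27 and Tnfrsf18 of all libraries, at 2.38, 0.66 and 1.29 CPM. The part of T and NK cells in these receptors was not tested. For 7 B cell markers the sum was 7.19, 7.40 and 10.1 CPM in shYthdf2, against 6.72, 4.34 and 11.1 CPM in shNC, so the groups overlapped. Cd40, the receptor on B cells, macrophages and endothelium (ENSMUSG00000017652, chromosome 2), had 4.82, 3.64 and 3.58 CPM in shYthdf2, against 4.17, 3.38 and 2.96 CPM in shNC. Cd40 differed by a log2 fold change of 0.20 ± 0.28 (SE), and its 95% interval of -0.47 to 0.86 lay within a 2-fold difference. The ligand gene Cd40lg was seen with 4 counts in shYthdf2 3 and 0 counts elsewhere.

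RANK ligand and its receptors, known for bone resorption and lymph node formation, had low and scattered values. Tnfsf11, the ligand RANKL (ENSMUSG00000022015, chromosome 14), had 33, 19 and 8 counts in shYthdf2, against 12, 0 and 12 counts in shNC. For Tnfsf11 the log2 fold change was 1.31 ± 1.27 (SE, 95% interval -1.66 to 4.29). Tnfrsf11a, the receptor RANK (ENSMUSG00000026321, chromosome 1), had 8.25, 5.88 and 7.71 CPM in shYthdf2, against 4.29, 4.69 and 13.7 CPM in shNC. As for Tnfrsf12a, shNC 3 was the highest library and shNC 1 and 2 were the lowest. For Tnfrsf11a it was -0.05 ± 0.47 (SE), and 0.70 without shNC 3. Tnfrsf11b, the decoy receptor osteoprotegerin (ENSMUSG00000063727, chromosome 15), had 34, 63 and 12 counts in shYthdf2, against 4, 4 and 56 counts in shNC. For osteoprotegerin it was 0.76 ± 1.16 (SE), and 3.06 without shNC 3.

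B cell survival factors showed no separation. Tnfsf13b, the ligand BAFF (ENSMUSG00000031497, chromosome 8), had 2.78, 2.92 and 1.03 CPM in shYthdf2, against 2.05, 2.49 and 2.54 CPM in shNC. The lowest library was shYthdf2 3, and the log2 fold change of -0.07 ± 0.44 (SE) became 0.28 without it. Of the B cell receptors for these ligands, Tnfrsf13c and Tnfrsf17 had too few counts to be tested, with 23 counts of Tnfrsf17 in shNC 2 and 0 counts elsewhere. Among receptors related to that of ectodysplasin, Eda2r, the receptor XEDAR (ENSMUSG00000034457, chromosome X), had 4.25, 4.20 and 8.08 CPM in shYthdf2, against 3.39, 3.10 and 6.02 CPM in shNC. The third library was highest in both groups, and the log2 fold change was 0.40 ± 0.40 (SE). Tnfrsf19, the orphan receptor TROY (ENSMUSG00000060548, chromosome 14), had 32, 30 and 19 counts in shYthdf2, against 62, 69 and 35 counts in shNC. The closest values were those of shYthdf2 1 and shNC 3, and the log2 fold change was -1.10 ± 0.55 (SE, 95% interval -2.39 to 0.20).

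Recurring orders of the libraries were counted over all members, and these orders were chosen after the values were seen. In 8 of 37 members (21.6%) shYthdf2 1 and 2 were the highest libraries, against 7.45% of all genes tested. These were Tnf, Tnfsf11, Tnfsf13b, Tnfsf14, Tnfrsf1a, Tnfrsf9, Tnfrsf10b and Tnfrsf26. In 12 members (32.4%) shNC 1 and 2 were the lowest, against 17.6% of all genes, among them Ltb, Ltbr, Tnfrsf1a, Tnfrsf1b, Tnfrsf12a and Tnfrsf11a. In 4 members, Tnfsf10, Fas, Tnfrsf19 and Tnfrsf25, shNC 1 and 2 were the highest, or 10.8% against 17.3% of all genes. The control shNC 3 lay outside the range of the other 5 libraries in 45.9% of the members, close to the 47.3% of all genes. Members share libraries, so these counts describe the 6 samples and carry no test.

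**Figure D5:**
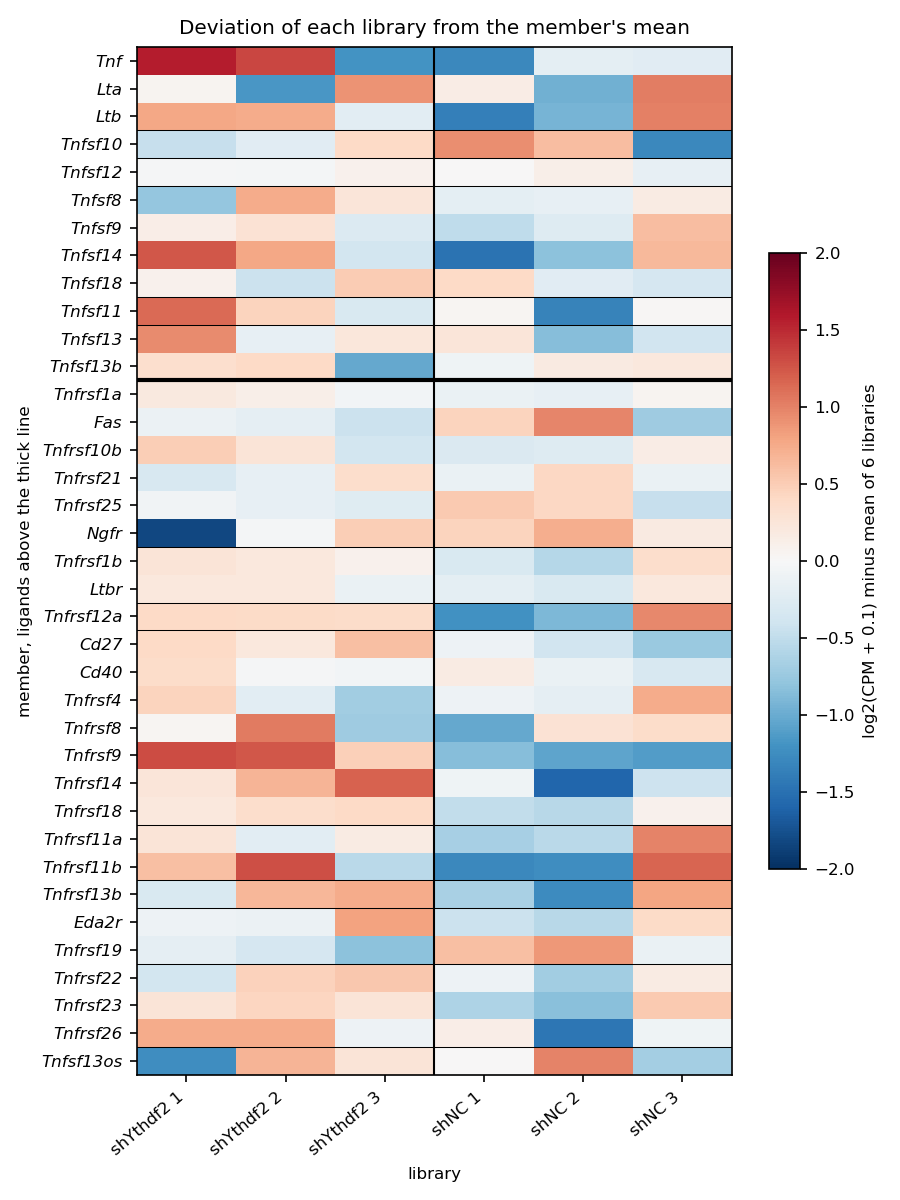
Deviation of each library from the mean of the 6 libraries, on the scale of log2(CPM + 0.1), for the 37 members tested, with the shYthdf2 libraries left of the shNC libraries, ligands above the thick line and roles divided by thin lines. Tnf, Tnfsf14 and Tnfrsf9 are high in shYthdf2 1 and 2, Tnfrsf12a and Tnfrsf11a are high in shNC 3 and low in shNC 1 and 2, and Tnfsf12 is close to its mean in every library.

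Promoter sequences are shown for Tnf and Tnfrsf9, the ligand and the receptor with the largest log2 fold changes among the 8 members that were highest in shYthdf2 1 and 2. They are RefSeq windows of 300 bases on GRCm38.p6, from 250 bases before to 50 bases after an annotated start, matched by symbol; the build of the count table is not given in the sources used here. Tnf has 1 window in that table (chr17:35201958-35202257, minus strand), and Tnfrsf9 has 2 (chr4:150919905-150920204 and chr4:150927749-150928048, plus strand). Capitals mark TATAAA, the kappaB consensus and TGANTCA, the AP-1 motif, each searched on both strands with overlapping matches of a motif merged.
Tnf: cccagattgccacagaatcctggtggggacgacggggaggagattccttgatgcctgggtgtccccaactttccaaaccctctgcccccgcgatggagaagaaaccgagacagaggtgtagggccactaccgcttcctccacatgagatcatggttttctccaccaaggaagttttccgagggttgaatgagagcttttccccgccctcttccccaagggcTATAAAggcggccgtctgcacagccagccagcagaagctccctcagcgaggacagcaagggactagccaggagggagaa
Tnfrsf9, upstream window: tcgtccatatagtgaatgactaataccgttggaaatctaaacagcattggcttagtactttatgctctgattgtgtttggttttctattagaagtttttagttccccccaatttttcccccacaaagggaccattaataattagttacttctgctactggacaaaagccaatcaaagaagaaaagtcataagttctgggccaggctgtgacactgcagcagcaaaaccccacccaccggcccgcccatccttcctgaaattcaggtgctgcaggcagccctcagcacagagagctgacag
Tnfrsf9, downstream window: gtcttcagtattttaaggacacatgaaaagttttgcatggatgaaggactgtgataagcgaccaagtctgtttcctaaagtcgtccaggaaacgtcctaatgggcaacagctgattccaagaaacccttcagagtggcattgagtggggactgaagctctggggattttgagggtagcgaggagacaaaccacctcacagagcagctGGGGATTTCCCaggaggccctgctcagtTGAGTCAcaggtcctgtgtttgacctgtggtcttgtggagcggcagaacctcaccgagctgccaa

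The downstream window of Tnfrsf9 held 1 kappaB match and 1 TGANTCA match, which did not overlap, while its upstream window held neither. The window of Tnf held a TATAAA and no match to the other motifs. Of the 44 members, 33 had 37 windows in the RefSeq table. The kappaB consensus was found in 10.8% of those windows, in the genes Ltb, Tnfrsf8, Tnfrsf9 and Tnfrsf25, against 5.81% of all 32851 windows. TGANTCA was found in 18.9%, against 7.81% of all windows, and TATAAA in 18.9%, against 13.6%. Of the 4 genes with a kappaB match, Tnfrsf9 and Ltb had positive log2 fold changes of 2.28 and 0.55, Tnfrsf8 had 0.42 and Tnfrsf25 had -0.38. A match describes letters only, and no binding was measured.

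Beyond the ligands and receptors, the genes that relay and act on their signal showed 0 calls in edgeR and in DESeq2. Of 37 genes of TNF receptor signalling (adaptors, kinases, caspases and NF-kappaB subunits), 23 had a positive log2 fold change and the median was 0.06, against -0.01 for all genes tested. At an unadjusted p under 0.05 there was 1 gene of the 37, Tnfaip3, against 3.65% of all genes tested. That gene is the ubiquitin-editing brake on NF-kappaB that NF-kappaB itself induces. Tnfaip3 (ENSMUSG00000019850, chromosome 10) had 19.4, 16.6 and 7.22 CPM in shYthdf2, against 5.43, 10.5 and 4.60 CPM in shNC. It was high in the libraries in which Tnf was high, shYthdf2 1 and 2, and the groups overlapped at shYthdf2 3 and shNC 2. Its log2 fold change was 1.08 ± 0.46 (SE, edgeR adjusted p = 0.976). Birc3, an inhibitor of apoptosis in the receptor complex, had a log2 fold change of 0.18 ± 0.23 (SE). Ripk3, the kinase of necroptosis, had 0.35 ± 0.36 (SE).

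Of the 37 signalling genes, 4 had groups that did not overlap, 2 higher (Ripk1 and Rela) and 2 lower (Map3k5 and Chuk) in shYthdf2, against 9.51% of all genes tested in either direction. Chuk was named here after its values were seen. Ripk1, which decides between survival and death signalling at the receptor, had 25.1, 25.7 and 24.9 CPM in shYthdf2, against 20.1, 18.3 and 21.8 CPM in shNC, a log2 fold change of 0.33 ± 0.17 (SE). Map3k5, the stress kinase ASK1, had 28.5, 30.1 and 26.8 CPM in shYthdf2, against 38.3, 41.3 and 32.9 CPM in shNC, a log2 fold change of -0.40 ± 0.17 (SE). Rela, the p65 subunit of NF-kappaB, had a log2 fold change of 0.31 ± 0.17 (SE). Chuk, a kinase that activates NF-kappaB, had a log2 fold change of -0.11 ± 0.16 (SE). None of these 4 genes passed in edgeR (adjusted p = 0.976 each).

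Among 5 genes that control the shedding of ligands and receptors, 0 passed in edgeR. In 1 of the 5, Adam10, the groups did not overlap, against 9.51% of all genes tested in either direction. Adam10, a sheddase, had 41.5, 49.4 and 60.7 CPM in shYthdf2, against 35.5, 6.96 and 8.53 CPM in shNC. The groups did not overlap, although shNC 1 lay near the shYthdf2 values, and the log2 fold change was 1.57 ± 0.61 (SE) at an unadjusted p of 0.0349 (edgeR adjusted p = 0.976). Adam17, the main TNF-converting enzyme, had a log2 fold change of -0.25 ± 0.23 (SE) and overlapping groups. Timp3, the inhibitor of that enzyme, had 319, 322 and 222 CPM in shYthdf2, against 340.1, 316 and 133 CPM in shNC, and a log2 fold change of 0.13 ± 0.37 (SE). Rhbdf1 and Rhbdf2, partners that carry that enzyme to the cell surface, had log2 fold changes of 0.19 and -0.16.

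Of 12 inflammatory and endothelial genes that TNF is known to induce, 10 had a positive log2 fold change, against 48.6% of all genes tested. Their median was 0.47, against -0.01 for all genes, and 0 passed in edgeR or had an unadjusted p under 0.05. In 2 of the 12, Ccl2 and Vcam1, the groups did not overlap, against 9.51% of all genes tested in either direction. Ccl2, which attracts monocytes, had 102, 105 and 113 CPM in shYthdf2, against 27.4, 45.5 and 91.9 CPM in shNC. The groups did not overlap and shNC 3 was close to the shYthdf2 libraries, at a log2 fold change of 0.96 ± 0.41 (SE, edgeR adjusted p = 0.976). Sele, the endothelial adhesion molecule E-selectin, had a log2 fold change of 0.83 ± 0.37 (SE), and Cxcl10, a chemokine for activated T cells, had 0.53 ± 0.32 (SE). Vcam1, an adhesion molecule for leukocytes, had 40.3, 41.4 and 37.9 CPM in shYthdf2, against 29.2, 35.0 and 33.6 CPM in shNC, a log2 fold change of 0.29 ± 0.16 (SE) without overlap. Without shNC 3, Ccl2 passed in edgeR (log2 fold change 1.55, adjusted p = 0.0492).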

How the data were processed

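Total RNA of 6 heart samples was extracted with Trizol and made into TruSeq libraries, per the labels' protocols. The authors' deposited table gives raw counts per gene, per the file headers, and FPKM that the authors made from them, per the column headers of the file, in which rows without counts are listed at 0.0001. The submitters' processing notes name Bowtie 0.12.2 and the build mm8, with no role stated. Not given in the sources used here are the counting tool, annotation, strand setting and coordinate build. Counts were tested in R 4.3.3 by edgeR 4.0.16 (quasi-likelihood F test, two-sided, TMM scaling, filterByExpr, Benjamini-Hochberg adjustment over 20489 genes, threshold 0.05), shYthdf2 over shNC. Tested genes held 99.9% or more of the counts of each library.

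CPM are on the TMM-scaled library size. Levels between genes were compared in FPKM. Alternatives were DESeq2 1.42.0, limma 3.58.1 on log2(FPKM + 0.1, 0.5 or 1), other scalings and filters, robust fitting, a replicate block, each library left out in turn, and shYthdf2 1 and 2 summed. No set test was run. The procedure was checked on simulated counts. Libraries were compared in pairs: shYthdf2 1 and 2 were the closest (r = 0.963 on log2 CPM) and still differed beyond sampling noise (chi-square per degree of freedom 39.5), so they were kept as separate libraries. Named were a fixed set of 20 members, the 6 with the smallest p, and the 4 ligands and 6 receptors with the highest FPKM; in each other list, the 4 genes with the smallest p plus Tnfaip3, Birc3, Ripk3, Adam17 and Timp3. Members, lists and alternatives were chosen with earlier results of these data known. Promoter windows are from RefSeq tables on GRCm38.p6.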

Additional observations from a re-analysis of the deposited data

How the results depend on the processing

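Of the 37 members tested, 26 kept their sign under every alternative that gave them a value, 16 or 17 each. The number of members past the threshold was 0, and 1 with DESeq2 (Tnfrsf9); with 1 library left out it ran from 0 to 1 (Tnfrsf12a without shNC 3). Over all genes the number was 2, against 47 with DESeq2, 0 with shYthdf2 1 and 2 summed, 1 with limma on log2(FPKM + 0.5), 1 with a pseudocount of 0.1 and 1 with a pseudocount of 1, and 0 to 211 with 1 library left out. Among the genes of the pathway lists it ran from 0 to 2 with 1 library left out, the 2 being Relt and Ccl2 without shNC 3. The median log2 fold change of the ligands was 0.26, and 0.059 with limma on log2(FPKM + 0.5) and 0.044 with a pseudocount of 1. With 1 library left out the median ran from 0.16 (without shNC 2) to 0.59 (without shNC 3) for ligands and from 0.19 to 0.67 for receptors (without shNC 2 and shNC 3).

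Replicate numbers of the labels did not pair the libraries: deviations of same-numbered libraries from their group means correlated at -0.01, -0.03 and -0.06. With the number as a replicate block, 0 genes and 0 members passed, and Tnfrsf11a turned to 0.15. Its log2 fold change also turned positive with limma, at 0.059, 0.14 and 0.023 for pseudocounts of 0.5, 0.1 and 1. Tnfsf12 turned to -0.021 with upper-quartile scaling and -0.0055 with a filter of 1 CPM, and Tnfsf9 to -0.011 with upper-quartile scaling. With shYthdf2 1 and 2 summed, Tnfsf9 turned to -0.033, Lta to 0.12 and Tnfrsf21 to 0.023.

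With 1 library left out, signs of 11 members turned. Log2 fold changes then ran from -1.08 to 0.68 for Lta, -0.33 to 0.70 for Tnfrsf11a, -0.31 to 0.12 for Tnfrsf21, -0.70 to 0.071 for Tnfrsf4, -0.43 to 0.85 for Tnfrsf8, -0.054 to 0.086 for Tnfsf12, -0.31 to 0.28 for Tnfsf13b, -0.74 to 0.53 for Tnfsf13os, -0.17 to 0.54 for Tnfsf18, -0.16 to 0.75 for Tnfsf8 and -0.18 to 0.48 for Tnfsf9. The cause of these changes was not tested. Members under 1 CPM rest on few counts, and 7 members had too few to test.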

Other observations

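Of relatives of the family outside the name rule, 0 of the 6 tested passed in edgeR or had an unadjusted p under 0.05. In 1 of the 6, Eda, the groups did not overlap, against 9.51% of all genes tested in either direction. Eda, the ligand ectodysplasin that shapes hair and teeth, had 2.44, 3.06 and 3.12 CPM in shYthdf2, against 3.89, 4.13 and 3.79 CPM in shNC. All 3 shYthdf2 libraries lay below all 3 shNC libraries, at a log2 fold change of -0.45 ± 0.26 (SE; edgeR adjusted p = 0.976). Relt, a receptor of the family found on lymphoid cells, had 13.2, 13.5 and 9.34 CPM in shYthdf2, against 3.13, 3.73 and 18.3 CPM in shNC. As for Tnfrsf12a, shNC 3 was the highest library and shNC 1 and 2 were the lowest, and its log2 fold change was 0.52 ± 0.66 (SE), or 1.81 without shNC 3 (adjusted p = 0.0460 in edgeR). Rell1, a membrane partner of RELT, had a log2 fold change of 0.10 ± 0.18 (SE). Edaradd, the adaptor of the ectodysplasin receptor, had 0 counts in shYthdf2 3 and under 1 CPM in every other library.

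Other marker lists also differed between libraries. The 5 erythroid markers summed to 614, 613 and 641 CPM in shYthdf2, against 2094, 3684 and 479 CPM in shNC. Of these, 0 of 5 passed the threshold in edgeR and 5 of 5 had an unadjusted p under 0.05, against 3.65% of all genes tested. The groups overlapped in all 5. Smooth muscle and pericyte markers summed to 1028, 1026 and 774 CPM in shYthdf2, against 919, 895 and 486 CPM in shNC. Of these markers 0 of 6 passed the threshold in edgeR and 3 of 6 had an unadjusted p under 0.05, against 3.65% of all genes tested. Those 3 were Acta2, Tagln and Myh11, with log2 fold changes of 1.28, 1.40 and 1.19. Rgs5 and Kcnj8 went the other way, at -0.41 and -0.26, and Pdgfrb had 0.09.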
